A study of Mus musculus with 15 samples.

Results

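Gene expression was compared between mouse macrophages exposed to tremolite asbestos and untreated macrophages of the same culture type. The comparison rests on 6 of 15 libraries, chosen by their labels, 3 of tremolite asbestos and 3 of untreated cells. The cells are MPI cells, non-transformed macrophages that renew themselves in culture, here from female C57BL6/J fetal liver and grown with 30 ng/ml of the growth factor GM-CSF. They were exposed for 24 h to tremolite asbestos at 5 µg/cm2, and untreated cells received no mineral. The other 9 libraries, 3 per group, were exposed for 24 h to tremolite fragments at 60 µg/cm2, riebeckite asbestos at 9 µg/cm2 or riebeckite fragments at 40 µg/cm2. These doses were matched by surface area, so the mass of mineral differs between particles. All cells came from a self-renewing culture model and not from lung tissue, and nothing in the labels tells whether the replicates were grown apart. The p-values below therefore measure the spread between these libraries, which may be technical.

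Tremolite is an amphibole, a calcium and magnesium silicate, and its asbestos habit consists of thin, durable fibres. Macrophages of the lung's air spaces are the cells that take up inhaled mineral particles. They try to digest them in phagosomes and lysosomes, and long fibres can be engulfed only in part. Textbook accounts of the response to fibres describe oxidants, activation of the transcription factor NF-kB, release of interleukin-1 and tumour necrosis factor, and growth factors that act on neighbouring fibroblasts.

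Levels are FPKM, mapped fragments scaled to transcript length and to the library's total, as the authors deposited them for 10653 genes and 22795 transcripts. Summed FPKM lay between 257329 and 266393 in the 6 libraries, with the number of reads behind them unknown. Across genes, Spearman's rho was 0.989 to 0.991 among tremolite asbestos libraries, 0.990 to 0.992 among untreated libraries and 0.980 to 0.982 between the groups. Markers of alveolar macrophages were tested in 31 of 31 cases, among them Siglecf, Marco and Car4. Of 10 mast cell, 9 fibroblast, 13 lymphocyte and 5 megakaryocyte markers 0 were among the genes tested, and of 10 hepatocyte markers only the transferrin gene Trf was. The other markers of these types are not among the genes tested. Of 17 neutrophil markers Cxcr2, Mmp8 and S100a8 were, and their summed level was 48.0, 40.9 and 38.7 FPKM after tremolite asbestos, against 35.1, 31.1 and 30.8 FPKM in untreated cells. In the test described below Cxcr2 and S100a8 were higher (0.88 and 0.33 on the log2 scale), and Mmp8 did not pass (-0.115). S100a8 did not pass without untreated replicate 2 or 3 or tremolite asbestos replicate 1 (limma adjusted p = 0.0632 to 0.0783). Nor did it pass in a fit of the 6 libraries alone (0.0982). Genes of the mitochondrial genome took 7.99 to 8.33% of summed FPKM after tremolite asbestos and 8.54 to 8.86% in untreated cells.

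Tremolite asbestos changed many genes by a small amount and few by a large one. Of 10616 genes tested, 1062 were higher and 1478 lower than in untreated cells, 10.0 and 13.9% of all genes tested (limma on log2(FPKM + 1), Benjamini-Hochberg adjusted p under 0.05). These shares are the background against which the gene groups below are read. The median absolute log2 fold change of the called genes was 0.27. Only 57 genes were higher and 10 lower by at least 1 on the log2 scale, and 276 and 123 by at least 0.5. The 3 libraries of one group lay entirely above those of the other for 15.9% of genes in the direction higher after tremolite asbestos and for 23.9% in the direction lower, 39.9% in all. The balance between rises and falls moved with the scaling of the libraries, since 41.8% of called genes were higher with the values as deposited, 45.6% after quantile normalization and 54.8% after TMM rescaling. The median log2 fold change of all genes was -0.0327 as deposited and -0.00237 after TMM rescaling. Each fold change below is a difference of mean log2(FPKM + 1), so a change from a low level appears smaller than it is.

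**Figure D1:**
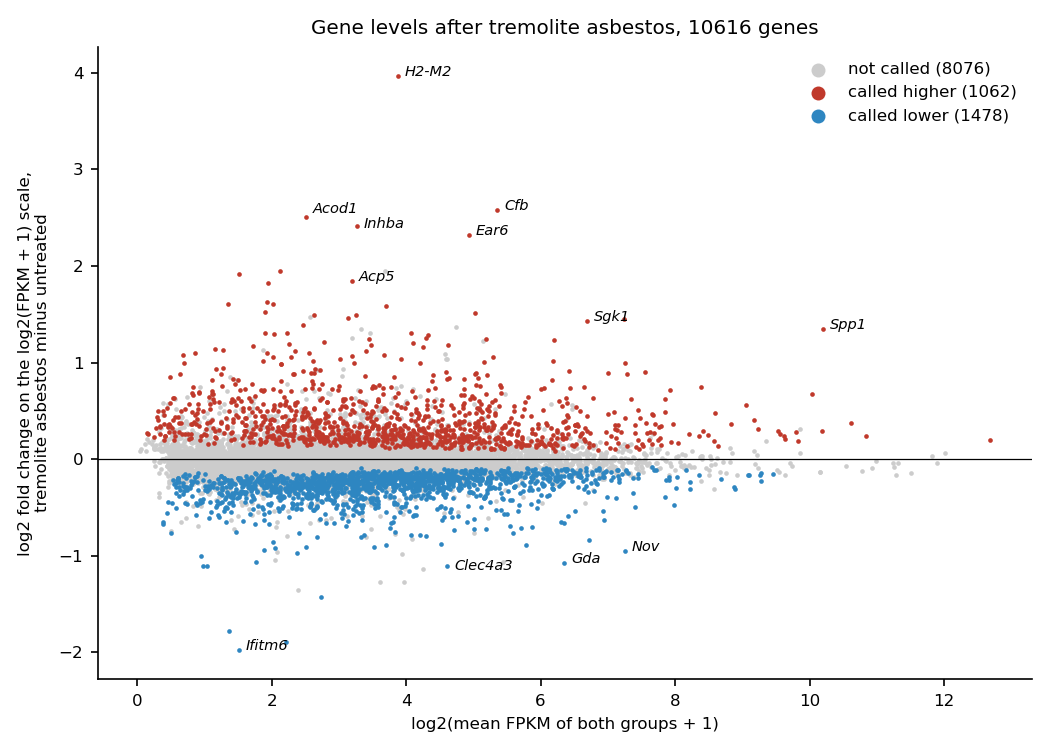
Log2 fold change on the log2(FPKM + 1) scale of tremolite asbestos minus untreated cells (vertical axis) against the log2 of the mean FPKM of both groups plus 1 (horizontal axis), 1 point per gene. Red points are the 1062 genes called higher and blue points the 1478 called lower; H2-M2 stands highest at 3.97 and Ifitm6 lowest at -1.98, while most called genes lie within 0.5 of 0.

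The largest rise was that of H2-M2, which encodes a heavy chain of the non-classical type in MHC class I (GRCm38, ENSMUSG00000016283.13, chromosome 17, 37480851 to 37483552). H2-M2 had 24.2, 29.9 and 25.8 FPKM after tremolite asbestos, against 0.778, 0.701 and 0.789 FPKM in untreated cells. The groups are far apart, with a 35.2-fold ratio of mean FPKM (log2 fold change 3.97, SE 0.08, limma adjusted p = 6.53e-12). Cfb encodes complement factor B, the protease of the alternative complement pathway (ENSMUSG00000090231.10, chromosome 17, 34856374 to 34862518). Its level was 62.7, 73.3 and 71.2 FPKM after tremolite asbestos, against 9.67, 11.3 and 11.3 FPKM in untreated cells (2.58, SE 0.088, limma adjusted p = 7.29e-10). Acod1, which makes the antimicrobial metabolite itaconate from a citric acid cycle intermediate (ENSMUSG00000022126.6, chromosome 14, 103046977 to 103056573), had 8.79, 8.82 and 8.45 FPKM after tremolite asbestos, against 0.671, 0.790 and 0.669 FPKM in untreated cells (2.50, SE 0.071, limma adjusted p = 2.26e-10). The 3 treated libraries of Acod1 lay close to one another and far above the untreated ones.

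Inhba encodes the subunit of activin A, a ligand of the TGF-beta family (ENSMUSG00000041324.14, chromosome 13, 16011851 to 16031621). It stood at 13.8, 17.6 and 14.2 FPKM after tremolite asbestos, against 2.09, 1.75 and 2.25 FPKM in untreated cells (2.42, SE 0.084, limma adjusted p = 7.29e-10). Tnfrsf9, the costimulatory receptor 4-1BB, had 4.22, 3.58 and 2.75 FPKM after tremolite asbestos, against 0.165, 0.203 and 0.198 FPKM in untreated cells (1.91, SE 0.16, limma adjusted p = 2.25e-06). Next came Acp5, a lysosomal acid phosphatase that osteoclasts also make in quantity, with 13.6, 13.5 and 12.7 FPKM after tremolite asbestos, against 3.17, 3.08 and 2.72 FPKM in untreated cells (1.84). Il7r, the receptor chain for interleukin-7 and TSLP, had 5.40, 4.75 and 4.92 FPKM after tremolite asbestos, against 0.797, 0.647 and 0.651 FPKM in untreated cells (1.83). In all 4 of these genes every treated library exceeded every untreated one.

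Other rises among the 15 largest were those of Ear6 and Ear1, ribonucleases of the eosinophil-associated family (2.32 and 1.59), the thymosin gene Tmsb15b2 (1.95), the membrane protein gene Emp1 (1.63), the keratin Krt79 (1.60), podoplanin Pdpn (1.53) and the ferric reductase gene Cyb561a3 (1.51). Ear6 and Ear1 belong to a family of near-identical genes whose reads can be split uncertainly. The call for Tmsb15b2 was lost when any 1 of the 6 libraries was left out (limma adjusted p = 0.0588 to 0.0879), and the other rises named here kept theirs under each alternative run. Among abundant transcripts, Spp1, the secreted matrix protein osteopontin, had 1712, 1634 and 1725 FPKM after tremolite asbestos, against 702, 665 and 631 FPKM in untreated cells (1.34, SE 0.048, limma adjusted p = 8.48e-10). Sgk1, a kinase that controls ion transport, had 144, 147 and 157 FPKM after tremolite asbestos, against 51.3, 55.8 and 57.8 FPKM in untreated cells (1.43).

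The falls were smaller. Ifitm6, an interferon-induced membrane protein gene of myeloid cells (ENSMUSG00000059108.4, chromosome 7, 141015699 to 141017924), had 0.163, 0.126 and 0.169 FPKM after tremolite asbestos, against 3.80, 3.85 and 3.03 FPKM in untreated cells (-1.98, SE 0.069, limma adjusted p = 7.29e-10). Its treated libraries, all far below 1 FPKM, lay under every untreated one.

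Clec4a3 and Clec12a, C-type lectin receptors of myeloid cells, also fell (-1.10 and -1.06). Gda, the guanine deaminase of purine breakdown, had 51.9, 51.4 and 51.4 FPKM after tremolite asbestos, against 111, 110 and 109 FPKM in untreated cells (-1.08, SE 0.037, limma adjusted p = 7.29e-10). Its 3 treated libraries differed by less than 1 FPKM and stood far from the untreated ones. Nov, the matricellular protein CCN3, had 110, 97.1 and 102 FPKM after tremolite asbestos, against 206, 200 and 194 FPKM in untreated cells (-0.95). Further falls among the 15 largest were those of Pram1, an adaptor of myeloid cells (-1.43), coagulation factor V, F5 (-1.11), the receptor Tarm1 (-1.10), Cd300lg (-1.0), the adhesion receptor Adgre4 (-0.97), the kallikrein Klk1b11 (-0.94), the retinoic acid enzyme Aldh1a2 (-0.92) and the transcription factor Klf2 (-0.91). Pram1 lost its call with a pseudocount of 0.1 (limma adjusted p = 0.0629).

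**Figure D2:**
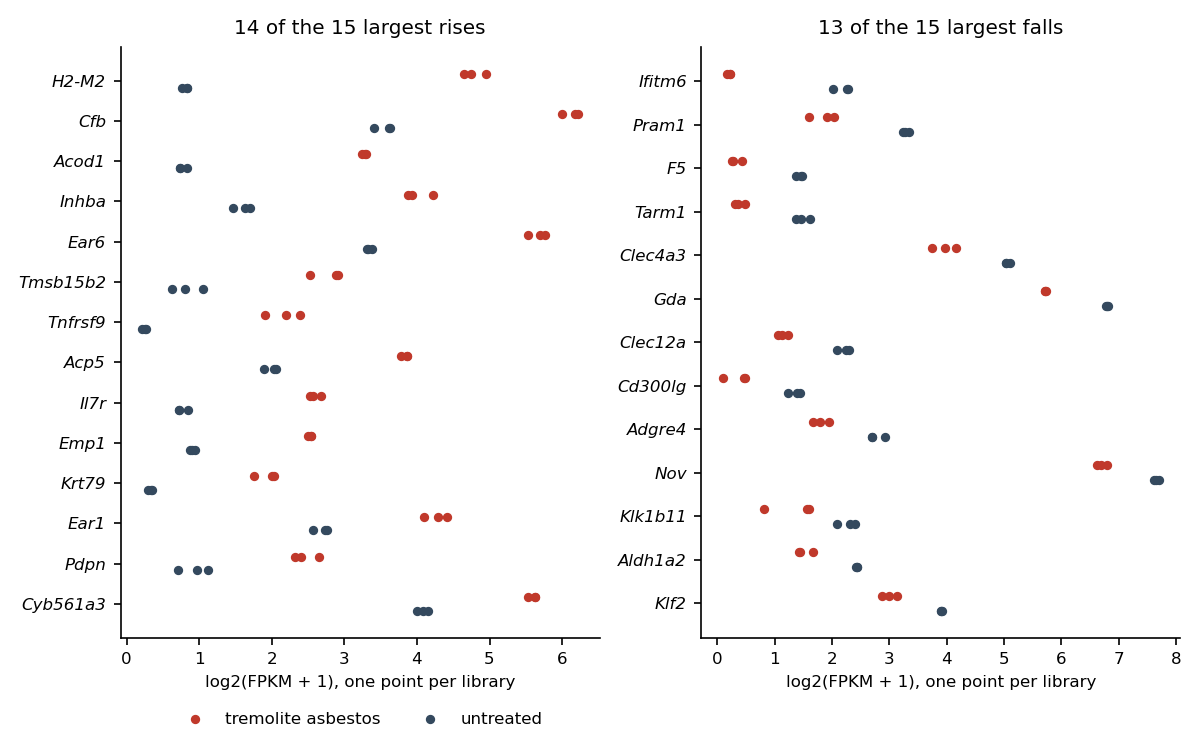
Log2(FPKM + 1) (horizontal axis) of 14 of the 15 largest rises (left) and 13 of the 15 largest falls (right) by log2 fold change among the called genes, 1 point per library, with tremolite asbestos in red above untreated cells in dark grey. The 3 points of each group lie apart from those of the other group in every gene shown, most widely in H2-M2.

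The promoter windows of a pair of the largest rises are shown because they hold matches to the motifs of NF-kB and AP-1, transcription factors of the inflammatory response. Of the 15 largest rises, 13 had a window in RefSeq (GRCm38.p6, 250 bases before to 50 bases after each start), and 3 of these, H2-M2, Tnfrsf9 and Krt79, held a kappaB motif on either strand. A gene counts where any of its windows holds the motif. Among all 8373 tested genes with a window 11.8% did. The AP-1 motif lay in 2 of the 13, 15.4% against 5.9% of all genes with a window. The ARE motif TGACNNNGC lay in 4, 30.8% against 17.3%. H2-M2 and Tnfrsf9 are among these 4, and their ARE matches are not marked. Of the 15 largest falls 11 had a window, and the ARE motif lay in 3 of these, 27.3%, a share near that of the rises. The AP-1 motif lay in 1 of the 11 and the kappaB motif in 0. The printed stretches are the 200 bases before the start, 5′ to 3′ on the gene's strand, with the matches in capitals. In H2-M2 the capitals mark a pair of kappaB matches, and in Tnfrsf9 a pair of overlapping kappaB matches and 1 match to the AP-1 motif TGANTCA nearer to the start.
H2-M2 (chr17:37483555-37483754, minus strand): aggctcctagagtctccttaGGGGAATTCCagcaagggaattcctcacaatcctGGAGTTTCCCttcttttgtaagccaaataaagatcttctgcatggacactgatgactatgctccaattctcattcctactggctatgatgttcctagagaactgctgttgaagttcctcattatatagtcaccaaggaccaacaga
Tnfrsf9 (chr4:150927799-150927998, plus strand): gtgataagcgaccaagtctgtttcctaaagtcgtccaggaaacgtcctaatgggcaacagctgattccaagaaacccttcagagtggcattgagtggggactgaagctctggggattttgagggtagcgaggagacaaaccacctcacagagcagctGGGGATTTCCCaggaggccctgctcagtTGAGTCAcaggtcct
Over the whole table, the AP-1 motif lay in 9.45% of 847 windowed genes called higher, 5.86% of 1161 called lower and 5.44% of 6366 not called, and the kappaB motif in 13.9, 10.1 and 11.8%. For the ARE motif the shares were 16.9, 17.2 and 17.3%. A match describes the letters only and is not evidence that a factor binds.

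Among secreted cytokines 7 of 9 tested members rose and 1 fell, with a median log2 fold change of 0.52 against -0.0327 over all genes. Il1b and Il1a encode the interleukin-1 ligands, and Tnf tumour necrosis factor. Il1b had 23.8, 27.0 and 25.3 FPKM after tremolite asbestos, against 9.37, 11.1 and 12.1 FPKM in untreated cells (1.16, SE 0.087, limma adjusted p = 7.94e-07). Tnf had 16.4, 16.0 and 16.5 FPKM after tremolite asbestos, against 6.19, 7.64 and 7.79 FPKM in untreated cells (1.08, SE 0.12, limma adjusted p = 2.29e-05). Il1a, the more abundant interleukin-1 transcript in these cells, had 104, 108 and 110 FPKM after tremolite asbestos, against 61.9, 62.9 and 67.6 FPKM in untreated cells (0.74, SE 0.044, limma adjusted p = 9.13e-08).

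The natural antagonist of both interleukin-1 ligands, Il1rn, rose as well, with 9.19, 8.90 and 9.18 FPKM after tremolite asbestos, against 5.36, 5.52 and 6.02 FPKM in untreated cells (0.61). Osm and Lif, ligands of the interleukin-6 family, rose by 0.52 and 0.50, and both averaged under 1 FPKM in untreated cells. Il18, which is stored as an inactive precursor until caspase-1 cleaves it, was the member that fell, with 70.0, 62.9 and 68.0 FPKM after tremolite asbestos, against 98.1, 103 and 103 FPKM in untreated cells (-0.59, SE 0.048, limma adjusted p = 1.49e-06). Interleukin-6 itself was not among the genes tested. Of 11 chemokines tested, 3 rose and 1 fell. Cxcl2, which attracts neutrophils, had 4.78, 4.46 and 4.26 FPKM after tremolite asbestos, against 1.48, 1.57 and 1.91 FPKM in untreated cells (1.05, SE 0.14, limma adjusted p = 0.000133), and Ccl17, which attracts T cells through CCR4, had 28.7, 33.0 and 29.7 FPKM after tremolite asbestos, against 16.1, 15.2 and 16.2 FPKM in untreated cells (0.90, SE 0.051, limma adjusted p = 7.14e-08). Ccl2 and Ccl3, both attractants of monocytes, did not pass the test, with log2 fold changes of 0.11, SE 0.24, limma adjusted p = 0.792, and -0.05, SE 0.055, limma adjusted p = 0.591. Ccl9 was called lower (-0.18), a call lost after TMM rescaling (limma adjusted p = 0.081) and without untreated replicate 1 or tremolite asbestos replicate 2 (0.0517 and 0.0519).

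Receptors for cytokines and chemokines rose in 21 of 31 tested cases and fell in 5, with a median of 0.20. Csf2rb and Csf2rb2 encode the beta chains of the receptor for GM-CSF, interleukin-3 and interleukin-5. Csf2rb had 253, 250 and 232 FPKM after tremolite asbestos, against 131, 128 and 131 FPKM in untreated cells (0.91, SE 0.033, limma adjusted p = 8.48e-10), and Csf2rb2 had 98.7, 98.7 and 91.0 FPKM after tremolite asbestos, against 46.4, 46.9 and 47.2 FPKM in untreated cells (1.02, SE 0.037, limma adjusted p = 8.48e-10). The receptor chains for interleukin-4 and interleukin-13, Il4ra and Il13ra1, rose by 0.48 and 0.56, and the interferon-gamma receptor chain Ifngr2 by 0.51. Cxcr2, the receptor for Cxcl2, had 4.60, 6.17 and 5.70 FPKM after tremolite asbestos, against 2.45, 2.61 and 2.46 FPKM in untreated cells (0.88). Of the falls, that of the interleukin-6 receptor chain Il6ra was the largest, with 2.77, 3.02 and 2.97 FPKM after tremolite asbestos, against 5.52, 5.77 and 5.71 FPKM in untreated cells (-0.77, SE 0.056, limma adjusted p = 5.59e-07). The count of falls was 3 without untreated replicate 2 or 3 or tremolite asbestos replicate 1, and 2 in the fit of the 6 libraries alone.

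NF-kB is held in the cytoplasm by IkB proteins, and its targets include those inhibitors and other brakes on the pathway. Of 17 such feedback genes and targets 11 rose and 0 fell, and of the 5 subunits 2 rose and 0 fell. At an unadjusted p under 0.05, 14 of the 22 were higher and 0 lower. Tnfaip3, which encodes the ubiquitin-editing brake A20, had 5.55, 5.53 and 3.56 FPKM after tremolite asbestos, against 1.67, 2.02 and 2.14 FPKM in untreated cells (0.98, SE 0.20, limma adjusted p = 0.00294). Nfkbia, the IkB-alpha gene, had 44.5, 44.0 and 43.0 FPKM after tremolite asbestos, against 25.2, 26.2 and 30.0 FPKM in untreated cells (0.68, SE 0.10, limma adjusted p = 0.000293). The treated libraries exceeded every untreated one in both genes. Tnip3 and Nfkbie, further inhibitors, rose by 0.75 and 0.73, and the antioxidant enzyme Sod2 by 0.49. The subunits that rose were Relb and Nfkb2 of the non-canonical arm (0.52 and 0.52). A kappaB motif lay in the window of 11 of 19 genes of this list, 57.9%, against 11.8% of all genes with a window. The list was made of NF-kB subunits and targets, so this share describes the list and adds nothing on the change after exposure.

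Receptors that sense microbes and damage were divided. Of 25 tested 9 rose and 5 fell. Clec4e, or Mincle, which binds glycolipids and a protein released by dead cells, had 8.08, 7.61 and 8.55 FPKM after tremolite asbestos, against 1.78, 2.24 and 2.73 FPKM in untreated cells (1.49, SE 0.10, limma adjusted p = 3.49e-07). Its partner Clec4d had 91.5, 88.8 and 93.1 FPKM after tremolite asbestos, against 49.0, 51.0 and 54.1 FPKM in untreated cells (0.82), and Clec5a 41.3, 44.1 and 40.2 FPKM after tremolite asbestos, against 21.4, 21.9 and 22.9 FPKM in untreated cells (0.89). Tlr2 and its co-receptor Cd14 rose by 0.55 and 0.54, whereas Tlr1 fell by 0.44. Tlr4 did not pass the test (-1.27, SE 0.87, limma adjusted p = 0.332): it had 5.56, 6.998 and 6.60 FPKM after tremolite asbestos, against 49.5, 10.1 and 9.09 FPKM in untreated cells, so the untreated library 1 stood far from the other 2.

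Inflammasomes are complexes in which a sensor activates caspase-1, which then cleaves interleukin-1 beta and gasdermin D. Of 16 genes tested 6 rose and 2 fell. Leaving out 1 library gave 3 to 5 rises, the fewest without tremolite asbestos replicate 3. The core members did not pass the test: Nlrp3 had 8.88, 9.65 and 8.38 FPKM after tremolite asbestos, against 11.2, 10.3 and 8.09 FPKM in untreated cells (-0.12, SE 0.12, limma adjusted p = 0.557), and Casp1 had 62.9, 63.8 and 69.6 FPKM after tremolite asbestos, against 68.6, 72.6 and 74.9 FPKM in untreated cells (-0.14, SE 0.064, limma adjusted p = 0.145). Of those that rose, Casp4, the sensor of intracellular lipopolysaccharide, had a log2 fold change of 0.44 and Naip2, a sensor of bacterial secretion systems, of 0.30. The membrane rupture gene Ninj1 was called at 0.71, a call lost without untreated replicate 3 (limma adjusted p = 0.087) and without tremolite asbestos replicate 1 or 3 (0.0508 and 0.0609). Gasdermin D, Gsdmd, the pore that opens the membrane, fell by 0.23, a call lost without untreated replicate 1 or 2 or tremolite asbestos replicate 3 (limma adjusted p = 0.0516 to 0.0735).

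Interferon response genes were higher after tremolite asbestos in most cases, but how many passed the test depended on which libraries set the spread. Type I interferons act through a complex of transcription factors that holds IRF9 and binds an element, the ISRE, in the promoters of antiviral genes. The median log2 fold change of the 56 tested members was 0.62, and all 3 treated libraries exceeded all 3 untreated ones in 44 of them, 78.6%, against 15.9% of all genes. In the fit of all 15 libraries 12 were called higher and 0 lower, and at an unadjusted p under 0.05 there were 27 and 1. In the fit of the 6 compared libraries alone 40 were called higher and 1, Irf1, lower, where 9.17% of all genes were called higher and 10.7% lower. Their summed level was 1733, 1764 and 2063 FPKM after tremolite asbestos, against 1227, 1186 and 1234 FPKM in untreated cells.

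Isg15, a ubiquitin-like protein attached to others in antiviral defence, had 43.6, 44.6 and 58.2 FPKM after tremolite asbestos, against 20.8, 18.9 and 20.7 FPKM in untreated cells. Its libraries do not overlap, and its log2 fold change was 1.23 with a limma adjusted p of 0.0668 in the fit of all libraries and 0.000712 in the fit of the compared ones. Ifit1, which binds foreign RNA, had 28.6, 35.5 and 49.1 FPKM after tremolite asbestos, against 16.1, 12.6 and 12.7 FPKM in untreated cells (1.36), with a limma adjusted p of 0.14 and 0.00418 in the same 2 fits. The tremolite asbestos library with replicate number 3 was the highest of its group in both genes. Bst2, or tetherin, which holds budding viruses at the membrane, passed in both fits, with 160, 152 and 185 FPKM after tremolite asbestos, against 84.4, 90.8 and 90.2 FPKM in untreated cells (0.89, SE 0.19, limma adjusted p = 0.00345). Slfn5 (1.06) and the signalling factor Irf9 (0.67) did so too, and Gbp2 was called in the fit of all libraries (0.83, SE 0.24, limma adjusted p = 0.0208), a call lost without untreated replicate 1 or 2 or tremolite asbestos replicate 3 (0.0507 to 0.0718). In the fit of all libraries there were 6 calls without untreated replicate 1 or tremolite asbestos replicate 3, 7 without untreated replicate 2 or 3, and 9 without tremolite asbestos replicate 1 or 2.

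The riebeckite libraries, which enter the shared spread, differed widely among themselves in these genes. Relative to the mean of untreated cells, the median log2 difference of the 56 genes was 0.45, 0.56 and 0.76 in the tremolite asbestos libraries, -0.05, -0.01 and 0.12 after tremolite fragments, -0.07, 0.37 and -0.57 after riebeckite asbestos and -0.54, 0.24 and -0.55 after riebeckite fragments. Replicate 2 of both riebeckite groups thus stood above the others. In the untreated libraries it was 0.03, -0.05 and 0.04. Searched as GAAA, any 2 bases and GAAA, the ISRE had at least 1 copy in the windows of 25 of 42 interferon response genes, 59.5%, against 3.92% of all genes with a window. The windows of Isg15 and Bst2 are shown because they hold several overlapping copies, marked by capitals, within the 200 bases before the start.
Isg15 (chr4:156200819-156201018, minus strand): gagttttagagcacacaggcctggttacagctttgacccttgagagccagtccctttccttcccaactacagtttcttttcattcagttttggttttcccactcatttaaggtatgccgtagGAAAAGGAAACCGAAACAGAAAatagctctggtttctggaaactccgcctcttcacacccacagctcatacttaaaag
Bst2 (chr8:71537473-71537672, minus strand): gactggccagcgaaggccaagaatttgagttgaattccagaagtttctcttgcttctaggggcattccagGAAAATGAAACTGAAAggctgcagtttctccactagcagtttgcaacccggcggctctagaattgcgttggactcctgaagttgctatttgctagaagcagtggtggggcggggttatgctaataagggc
The list was made of genes known to respond to interferon, so the share describes the list and adds nothing on the change after exposure. Of all genes called higher 5.08% held the motif and of those called lower 4.22%.

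**Figure D3:**
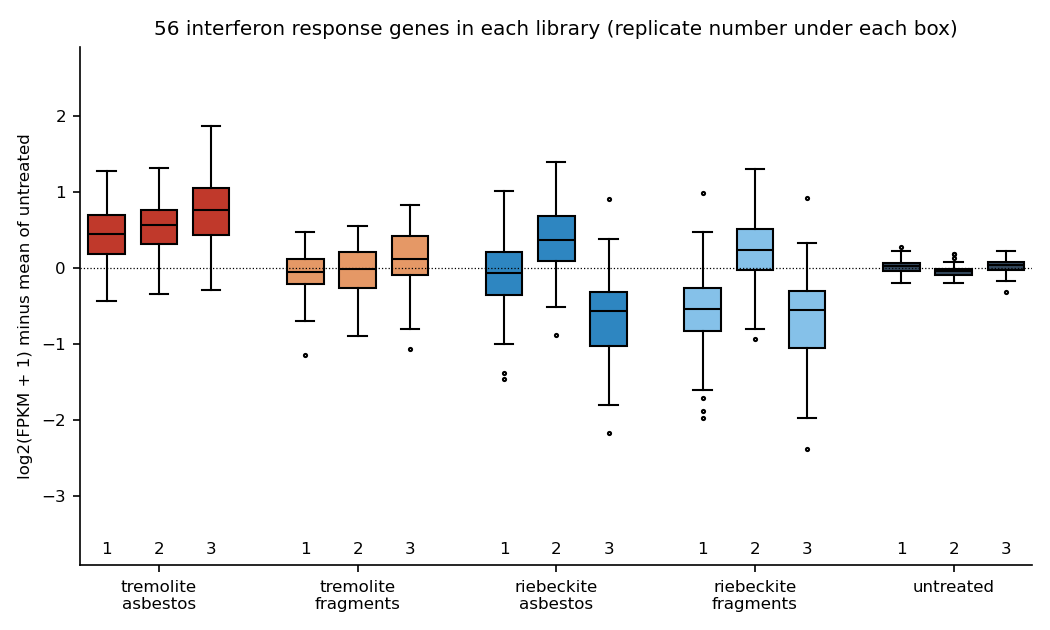
Log2(FPKM + 1) of 56 interferon response genes minus their mean in untreated cells (vertical axis) in each of 15 libraries, grouped by exposure, with the replicate number under each box; boxes span the quartiles with the median as a line, whiskers reach 1.5 times the box height and dots are genes beyond. All 3 tremolite asbestos boxes lie above the dotted line at 0, whereas the riebeckite libraries lie on both sides of it.

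Genes of MHC class I presentation rose in 8 of 17 cases and fell in 0, whereas of 7 class II and costimulation genes 0 rose and 2 fell. B2m, the light chain of class I, had 1808, 1684 and 1843 FPKM after tremolite asbestos, against 1444, 1294 and 1378 FPKM in untreated cells (0.37, SE 0.066, limma adjusted p = 0.00113). H2-K1, a classical heavy chain, had 145, 145 and 154 FPKM after tremolite asbestos, against 108, 108 and 105 FPKM in untreated cells (0.47), and Tapbp, which loads peptides, 91.5, 87.9 and 96.5 FPKM after tremolite asbestos, against 62.6, 60.6 and 57.0 FPKM in untreated cells (0.61). H2-DMa, which edits peptides on class II, had 26.5, 26.9 and 26.6 FPKM after tremolite asbestos, against 45.3, 44.5 and 43.7 FPKM in untreated cells (-0.72, SE 0.039, limma adjusted p = 4.58e-08). The heavy chain genes resemble one another, so their reads can be split uncertainly. In the complement list, 4 of 11 tested lines rose and 2 fell. Beside Cfb, C3, the central component, had 120, 128 and 128 FPKM after tremolite asbestos, against 67.7, 77.3 and 77.3 FPKM in untreated cells (0.75, SE 0.05, limma adjusted p = 2.81e-07), and Cfp, or properdin, which stabilises the alternative pathway convertase, had 97.7, 89.8 and 98.8 FPKM after tremolite asbestos, against 152, 148 and 144 FPKM in untreated cells (-0.63, SE 0.054, limma adjusted p = 2.54e-06).

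Receptors that take up particles and lipids rose in 8 of 14 cases and fell in 2. Olr1, a receptor for oxidised lipoprotein, had 202, 205 and 200 FPKM after tremolite asbestos, against 107, 110 and 110 FPKM in untreated cells (0.88, SE 0.037, limma adjusted p = 3.98e-09), and Cd36, for fatty acids and apoptotic cells, 205, 197 and 189 FPKM after tremolite asbestos, against 139, 122 and 123 FPKM in untreated cells (0.62). Marco, a scavenger receptor that binds unopsonised mineral particles, had 1267, 1233 and 1352 FPKM after tremolite asbestos, against 1068, 1052 and 1019 FPKM in untreated cells (0.29, SE 0.05, limma adjusted p = 0.000903). This call was lost after quantile normalization, where the log2 fold change was 0.04. Mrc1, the mannose receptor, had 262, 260 and 274 FPKM after tremolite asbestos, against 330, 329 and 330 FPKM in untreated cells (-0.31, SE 0.032, limma adjusted p = 1.42e-05). Fc receptors and Siglecs went the other way, with 1 of 19 tested lines higher and 8 lower. Fcgr2b, the inhibitory receptor for immunoglobulin G, had 72.7, 81.5 and 70.8 FPKM after tremolite asbestos, against 131, 136 and 138 FPKM in untreated cells (-0.84, SE 0.085, limma adjusted p = 1.25e-05), and the activating Fcgr4 118, 112 and 126 FPKM after tremolite asbestos, against 163, 155 and 153 FPKM in untreated cells (-0.40). The exception was Siglecf, an inhibitory lectin that marks alveolar macrophages, with 25.5, 30.2 and 26.6 FPKM after tremolite asbestos, against 9.50, 11.1 and 11.5 FPKM in untreated cells (1.28, SE 0.068, limma adjusted p = 3.92e-08).

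Genes of DNA replication fell together by a modest amount. Of 56 tested 39 were lower and 0 higher (44 and 0 at an unadjusted p under 0.05), 69.6% against 13.9% of all genes, and the median log2 fold change was -0.32. By role, 9 of 12 helicase genes, 5 of 8 licensing genes, 16 of 24 genes of polymerases and the clamp, 5 of 6 of nucleotide supply and 4 of 6 of chromatin assembly fell. Mcm6, a subunit of the replicative helicase, had 18.4, 18.6 and 19.5 FPKM after tremolite asbestos, against 26.9, 27.5 and 27.0 FPKM in untreated cells (-0.51, SE 0.035, limma adjusted p = 4.25e-07). Rrm2, the subunit that limits deoxynucleotide synthesis, had 12.03, 13.3 and 12.99 FPKM after tremolite asbestos, against 19.2, 19.4 and 20.5 FPKM in untreated cells (-0.59, SE 0.049, limma adjusted p = 1.82e-06). Uhrf1, which maintains DNA methylation behind the fork, had 17.7, 18.2 and 17.8 FPKM after tremolite asbestos, against 25.3, 26.7 and 24.9 FPKM in untreated cells (-0.49, SE 0.034, limma adjusted p = 3.61e-07). In all 3 genes the highest treated library lay below the lowest untreated one, as it did in 46 of the 56 genes. Pcna, the sliding clamp, fell less, by 0.19.

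Of 28 regulators of the entry into S phase 13 fell and 3 rose. Ccnd1 encodes cyclin D1, which carries growth factor signals to the cell cycle, and had 7.05, 6.63 and 6.18 FPKM after tremolite asbestos, against 12.1, 12.7 and 11.6 FPKM in untreated cells (-0.79, SE 0.081, limma adjusted p = 1.34e-05). Ccne2, an E-type cyclin, had 5.66, 5.86 and 5.23 FPKM after tremolite asbestos, against 8.47, 9.08 and 9.48 FPKM in untreated cells (-0.60), and Myc, a factor that drives growth, 19.1, 18.4 and 22.4 FPKM after tremolite asbestos, against 27.0, 29.6 and 29.9 FPKM in untreated cells (-0.51, SE 0.07, limma adjusted p = 0.000153). Cdkn1c, an inhibitor of cyclin-dependent kinases, had 0.992, 1.20 and 1.26 FPKM after tremolite asbestos, against 0.0469, 0.0687 and 0.109 FPKM in untreated cells (0.998, SE 0.063, limma adjusted p = 1.71e-07). The p53 target and kinase inhibitor Cdkn1a did not pass the test (0.06, SE 0.043, limma adjusted p = 0.325). Of 59 mitosis genes 15 fell and 1 rose, with a median of -0.12, and Top2a, which untangles chromosomes, had 30.2, 32.8 and 32.6 FPKM after tremolite asbestos, against 38.4, 40.1 and 41.9 FPKM in untreated cells (-0.32, SE 0.045, limma adjusted p = 0.000187). The proliferation marker Mki67 did not pass the test, with 76.9, 91.8 and 83.9 FPKM after tremolite asbestos, against 74.9, 83.5 and 88.4 FPKM in untreated cells (0.03, SE 0.067, limma adjusted p = 0.772).

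The E2F family switches on replication genes, and its motif, TTTCCCGC or TTTGGCGC on either strand, lay in the window of 12 of 46 replication genes, 26.1%, against 3.71% of all genes with a window. Because replication genes are targets of E2F, this share describes the list and adds nothing on the change after exposure. The E2F motif lay in 6.2% of all genes called lower, which include replication genes, 2.01% of those called higher and 3.49% of those not called. The windows of the helicase genes Mcm6 and Mcm7 are shown as examples, with the E2F matches in capitals. Mcm7 had 16.9, 16.1 and 16.2 FPKM after tremolite asbestos, against 21.0, 21.5 and 22.3 FPKM in untreated cells (-0.38).
Mcm6 (chr1:128359706-128359905, minus strand): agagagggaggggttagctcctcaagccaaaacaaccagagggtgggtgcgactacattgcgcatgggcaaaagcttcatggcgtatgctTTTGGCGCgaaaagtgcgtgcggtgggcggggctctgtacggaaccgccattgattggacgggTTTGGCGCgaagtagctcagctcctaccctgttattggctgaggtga
Mcm7 (chr5:138171884-138172083, minus strand): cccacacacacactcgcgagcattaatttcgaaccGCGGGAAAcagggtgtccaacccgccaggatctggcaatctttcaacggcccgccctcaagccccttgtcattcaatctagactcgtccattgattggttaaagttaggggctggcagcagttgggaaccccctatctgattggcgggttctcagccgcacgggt
Mcm6 holds 2 copies of the same letters on the gene's strand, and Mcm7 holds 1 copy on the other strand.

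Ribosome biogenesis genes, whose products process ribosomal RNA in the nucleolus, fell in 25 of 32 cases and rose in 0 (28 and 1 at an unadjusted p under 0.05). At 78.1% this was the highest share called lower among the 41 pathway lists. The median log2 fold change was -0.25. Nop58, a core protein of methylation-guide particles, had 3.90, 4.27 and 4.44 FPKM after tremolite asbestos, against 5.96, 6.25 and 6.92 FPKM in untreated cells (-0.50, SE 0.063, limma adjusted p = 6.89e-05), and Dkc1, the pseudouridine synthase, 6.56, 7.50 and 6.53 FPKM after tremolite asbestos, against 10.0, 9.81 and 10.2 FPKM in untreated cells (-0.49, SE 0.064, limma adjusted p = 0.00011). The proteins of the cytosolic ribosome were called lower in 21 of 79 cases and higher in 0, with a median of -0.13. This count was 6 after TMM rescaling, 38 after quantile normalization and 10 in the fit of the 6 libraries alone. It was 7 and 11 without untreated replicate 1 or 2, and 8 without tremolite asbestos replicate 2. Rps6, a component of the small subunit, had 275, 268 and 282 FPKM after tremolite asbestos, against 325, 324 and 321 FPKM in untreated cells (-0.23, SE 0.029, limma adjusted p = 6.26e-05).

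**Figure D4:**
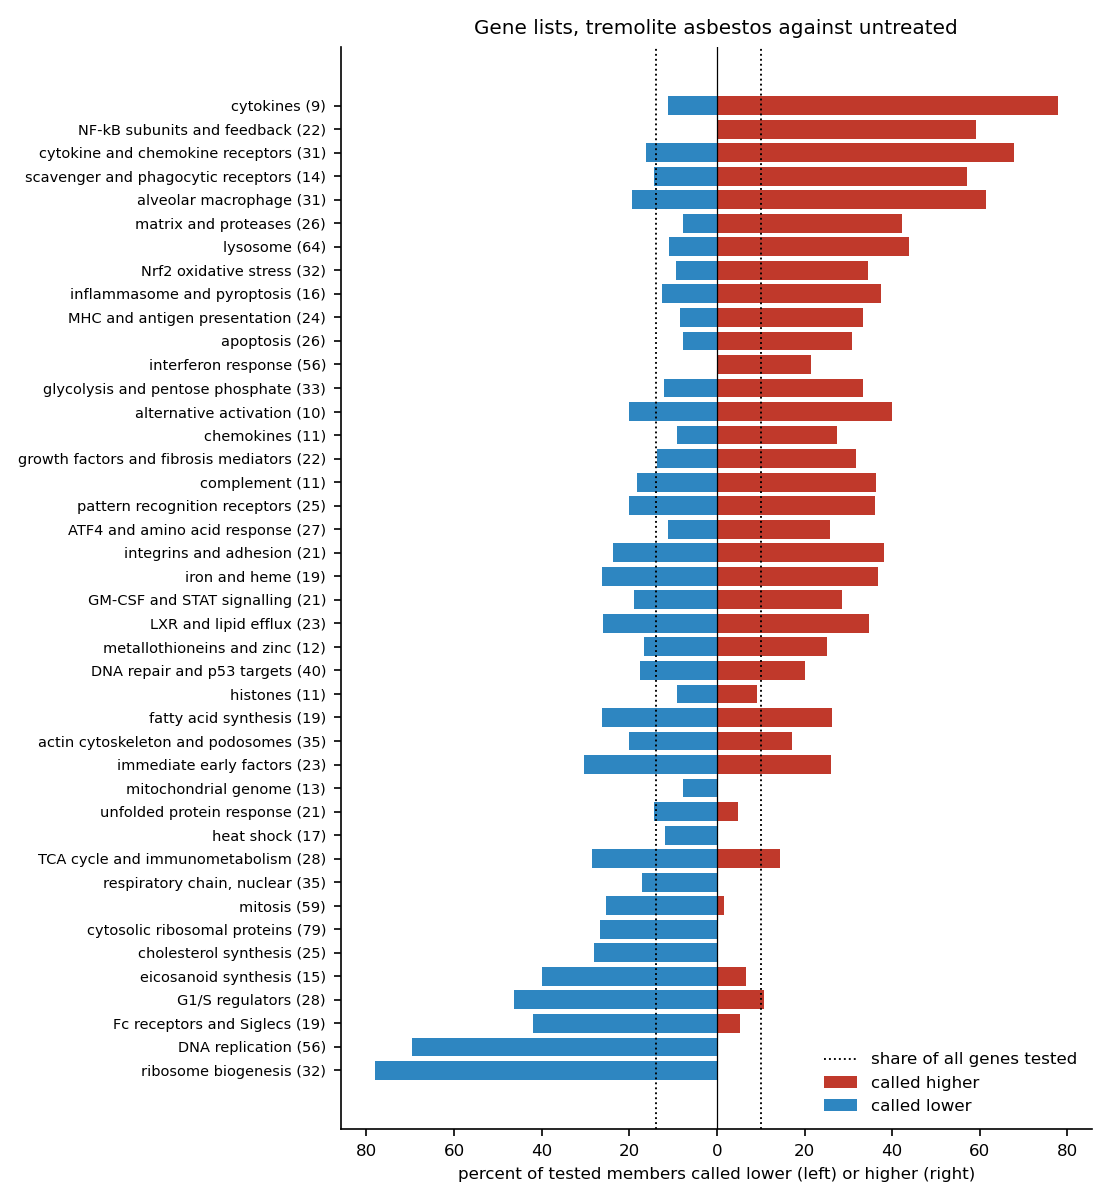
Percent of the tested members of each pathway list, and of the alveolar macrophage markers, with at least 9 tested members that were called lower (blue, to the left) or higher (red, to the right) after tremolite asbestos than in untreated cells, with the number tested in brackets; dotted lines mark the shares of all genes, 13.9% lower and 10.0% higher. Cytokines reach farthest to the right at 77.8%, and ribosome biogenesis at 78.1% and DNA replication at 69.6% farthest to the left.

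Of 64 lysosomal genes 28 rose and 7 fell, with a median of 0.12. Of 37 hydrolases 18 rose and 5 fell, and of 27 genes of the membrane and the proton pump 10 rose and 2 fell. Ctsk, a cathepsin that degrades collagen and elastin, had 1351, 1243 and 1252 FPKM after tremolite asbestos, against 854, 806 and 758 FPKM in untreated cells (0.67, SE 0.048, limma adjusted p = 5.45e-07). Atp6v0d2, a subunit of the proton pump of macrophages, had 851, 839 and 875 FPKM after tremolite asbestos, against 751, 723 and 740 FPKM in untreated cells (0.21, SE 0.033, limma adjusted p = 0.000491). Gla, which removes galactose from glycolipids, had 43.9, 42.8 and 42.2 FPKM after tremolite asbestos, against 33.5, 32.3 and 32.4 FPKM in untreated cells (0.38). Ctsc, which activates granule proteases, fell (-0.40). Acp5 exceeded the other lysosomal genes in the size of its rise, while its level was far below that of Ctsk on the FPKM scale.

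Nrf2 is a transcription factor that switches on antioxidant genes when oxidants act on its partner Keap1. Of 32 tested members of the Nrf2 list 11 rose and 3 fell. Hmox1, which breaks down heme, had 139, 134 and 124 FPKM after tremolite asbestos, against 88.6, 84.2 and 82.0 FPKM in untreated cells (0.63, SE 0.05, limma adjusted p = 1.08e-06). Srxn1, which repairs peroxiredoxins, rose by 0.64 and Slc7a11, the cystine importer for glutathione synthesis, by 0.41. Gsr, which regenerates reduced glutathione, had 146, 140 and 148 FPKM after tremolite asbestos, against 189, 181 and 183 FPKM in untreated cells (-0.35, SE 0.03, limma adjusted p = 2.54e-06), and Nqo1 was not among the genes tested. Of 19 genes of iron and heme 7 rose and 5 fell. Those that rose include Slc11a1, which pumps iron out of phagosomes (0.70), and the mitochondrial iron importer Slc25a37 (1.03). Those that fell include Tfrc, the transferrin receptor, with 5.03, 5.68 and 5.57 FPKM after tremolite asbestos, against 7.83, 8.55 and 7.97 FPKM in untreated cells (-0.50, SE 0.053, limma adjusted p = 1.63e-05), and Slc40a1, ferroportin, the iron exporter, with 1.36, 1.15 and 1.49 FPKM after tremolite asbestos, against 2.56, 2.58 and 2.72 FPKM in untreated cells (-0.64, SE 0.058, limma adjusted p = 4.77e-06). The zinc-binding metallothioneins Mt1 and Mt2 rose by 0.38 and 0.49, and the zinc importer Slc39a2 by 1.001. They are 3 of 12 tested in that list, of which 2 fell.

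Stress programmes of the endoplasmic reticulum and of heat shock had falls near the share of all genes. With the values as deposited, 14.3 and 11.8% were called lower, against 13.9% of all genes. The shares called higher were 4.76 and 0%, against 10.0%. Of 21 genes of the unfolded protein response 1 rose and 3 fell, among them the factor Xbp1 with 75.1, 71.0 and 75.3 FPKM after tremolite asbestos, against 109, 106 and 108 FPKM in untreated cells (-0.54, SE 0.038, limma adjusted p = 4.60e-07). After TMM rescaling 3 were called higher and 2 lower, and after quantile normalization 2 and 2. Of 17 heat shock genes 0 rose and 2 fell (0 and 2 at an unadjusted p under 0.05). Targets of the stress factor ATF4 rose in 7 of 27 cases and fell in 3. They include Atf3, with 59.1, 56.5 and 54.4 FPKM after tremolite asbestos, against 37.9, 39.2 and 37.6 FPKM in untreated cells (0.55, SE 0.061, limma adjusted p = 2.57e-05), and the stress cytokine Gdf15 (0.56).

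Of 33 genes of glycolysis and the pentose phosphate path 11 rose and 4 fell. Slc2a1, the glucose transporter GLUT1, had 35.7, 33.8 and 29.8 FPKM after tremolite asbestos, against 20.3, 23.7 and 22.4 FPKM in untreated cells (0.56, SE 0.078, limma adjusted p = 0.000181), Hk2, which traps glucose, 21.5, 23.1 and 21.5 FPKM after tremolite asbestos, against 16.1, 17.2 and 17.1 FPKM in untreated cells (0.37), and Ldha, which makes lactate, 120, 104 and 111 FPKM after tremolite asbestos, against 92.3, 88.9 and 86.2 FPKM in untreated cells (0.32). In the list of the citric acid cycle and linked amino acid metabolism 4 of 28 rose and 8 fell. These were 14.3 and 28.6%, against 10.0 and 13.9% of all genes. Beside Acod1, Ass1, which feeds arginine synthesis, had 27.2, 27.0 and 25.9 FPKM after tremolite asbestos, against 11.0, 10.4 and 10.6 FPKM in untreated cells (1.25, SE 0.047, limma adjusted p = 1.23e-09). Idh3a, a dehydrogenase of the cycle, fell by 0.40 and Odc1, the first enzyme of polyamine synthesis, by 0.72. After TMM rescaling 2 genes of the glycolysis list and 5 of the citric acid cycle list were called lower. Of 35 nuclear genes of the respiratory chain 6 were called lower and 0 higher (7 and 0 at an unadjusted p under 0.05). The share called lower, 17.1%, was near the 13.9% of all genes. After TMM rescaling and in the fit of the 6 libraries 1 was called lower, and without each library in turn 1 to 5 were. Of 13 genes of the mitochondrial genome 1, mt-Nd3, was called lower (-0.29, SE 0.044, limma adjusted p = 0.000413), and 7 were after quantile normalization. With the values as deposited the share called lower was 7.69%, against 13.9% of all genes. At an unadjusted p under 0.05 there were 3 lower and 0 higher.

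Lipid genes moved in different directions. Abca1, which exports cholesterol, had 19.3, 20.7 and 19.96 FPKM after tremolite asbestos, against 11.3, 12.1 and 12.3 FPKM in untreated cells (0.70, SE 0.05, limma adjusted p = 4.95e-07), and it was one of 8 of 23 genes of the LXR and lipid efflux list that rose, while 6 fell. Fabp4, a fatty acid carrier, had 60.7, 56.1 and 65.3 FPKM after tremolite asbestos, against 97.4, 93.8 and 95.8 FPKM in untreated cells (-0.65, SE 0.063, limma adjusted p = 7.48e-06). Of 25 cholesterol synthesis genes 7 were called lower and 0 higher (9 and 0 at an unadjusted p under 0.05), with Idi1, an isomerase of the pathway, the largest fall (25.5, 26.2 and 26.3 FPKM after tremolite asbestos, against 34.0, 32.5 and 32.9 FPKM in untreated cells, -0.34). In fatty acid synthesis 5 of 19 rose and 5 fell. Elovl6, which elongates palmitate, had 11.1, 11.1 and 11.5 FPKM after tremolite asbestos, against 21.4, 22.5 and 16.9 FPKM in untreated cells (-0.79, SE 0.08, limma adjusted p = 1.20e-05), and Acly, which supplies cytosolic acetyl-CoA, fell by 0.40. The acyl-CoA synthetases Acsl3 and Acsl4 rose by 0.31 and 0.32.

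Genes of the matrix and its proteases rose in 11 of 26 cases and fell in 2, with a median of 0.13. Tgm2, an enzyme that crosslinks proteins, had 33.6, 33.2 and 32.8 FPKM after tremolite asbestos, against 13.8, 14.4 and 14.3 FPKM in untreated cells (1.18, SE 0.043, limma adjusted p = 8.48e-10). Tgfbi, a matrix protein induced by TGF-beta, had 12.1, 12.8 and 11.0 FPKM after tremolite asbestos, against 3.69, 3.60 and 3.81 FPKM in untreated cells (1.46, SE 0.067, limma adjusted p = 8.96e-09). The elastase Mmp12 had 47.7, 42.1 and 34.1 FPKM after tremolite asbestos, against 20.03, 21.7 and 23.6 FPKM in untreated cells (0.88, SE 0.12, limma adjusted p = 0.000133), and the gelatinase Mmp2 had 4.46, 5.34 and 4.70 FPKM after tremolite asbestos, against 1.91, 2.01 and 1.93 FPKM in untreated cells (0.98, SE 0.071, limma adjusted p = 5.45e-07). In all 4 genes the groups do not overlap, and in Mmp12 the treated libraries spread the most. Of 22 growth factors, their receptors and regulators 7 rose and 3 fell. Beside Inhba, Igf1, insulin-like growth factor 1, had 78.4, 84.5 and 82.8 FPKM after tremolite asbestos, against 69.1, 65.8 and 66.9 FPKM in untreated cells (0.28, SE 0.031, limma adjusted p = 2.68e-05), and Skil, a repressor of TGF-beta signalling, 2.41, 2.48 and 2.39 FPKM after tremolite asbestos, against 0.833, 0.888 and 1.08 FPKM in untreated cells (0.83).

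Integrins and adhesion genes rose in 8 of 21 tested lines and fell in 5. Itgb5, whose integrin binds vitronectin and osteopontin, had 13.04, 14.3 and 13.1 FPKM after tremolite asbestos, against 7.73, 8.20 and 6.996 FPKM in untreated cells (0.75, SE 0.071, limma adjusted p = 6.43e-06), and Itga5, of the fibronectin receptor, 22.6, 22.9 and 22.2 FPKM after tremolite asbestos, against 14.9, 14.8 and 15.3 FPKM in untreated cells (0.56). Cdh1, E-cadherin, had 36.0, 35.7 and 35.2 FPKM after tremolite asbestos, against 53.7, 52.4 and 53.8 FPKM in untreated cells (-0.57, SE 0.061, limma adjusted p = 1.94e-05). The falls in this list numbered 3 after TMM rescaling and without untreated replicate 3 or tremolite asbestos replicate 1. Of 35 genes of the actin cytoskeleton 6 rose and 7 fell. Flna, which crosslinks actin filaments, had 86.1, 80.5 and 85.4 FPKM after tremolite asbestos, against 102, 104 and 102 FPKM in untreated cells (-0.28, SE 0.035, limma adjusted p = 6.87e-05), and Lsp1, an actin-binding protein of leukocytes, fell by 0.37. Without untreated replicate 3 or tremolite asbestos replicate 1, 3 were called higher.

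Of 31 alveolar macrophage markers 19 rose and 6 fell, with a median of 0.23. The transcription factor Bhlhe41, which maintains these cells, had 77.5, 80.1 and 79.0 FPKM after tremolite asbestos, against 46.7, 46.8 and 48.8 FPKM in untreated cells (0.72, SE 0.029, limma adjusted p = 2.76e-09), and the keratin Krt19 25.4, 21.4 and 23.9 FPKM after tremolite asbestos, against 11.2, 12.2 and 10.6 FPKM in untreated cells (0.99). The integrin chain Itgax, or CD11c, had 44.9, 47.9 and 47.6 FPKM after tremolite asbestos, against 37.8, 36.9 and 37.0 FPKM in untreated cells (0.32), and Pparg, the factor that GM-CSF induces to fix alveolar macrophage identity, 87.6, 81.0 and 90.3 FPKM after tremolite asbestos, against 71.0, 73.3 and 75.2 FPKM in untreated cells (0.23). Alveolar macrophage markers that fell include Fabp4, the lowest of the list at -0.65, Il18 and Mrc1. Of 13 tested lines of general macrophage markers 3 rose and 2 fell, 23.1 and 15.4% against 10.0 and 13.9% of all genes. Csf1r, the receptor for M-CSF, had 91.9, 90.6 and 90.6 FPKM after tremolite asbestos, against 71.1, 72.5 and 74.3 FPKM in untreated cells (0.32), and Adgre1, which encodes F4/80, 65.2, 60.0 and 63.5 FPKM after tremolite asbestos, against 70.8, 71.5 and 68.6 FPKM in untreated cells (-0.16). These cells are a culture of 1 kind of macrophage, and a shift in the make-up of the culture and a change within each cell cannot be told apart from bulk RNA.

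A direct test set tremolite asbestos against tremolite fragments, matched by surface area at 5 against 60 µg/cm2. The habit and the mass of the mineral differ together here and cannot be told apart. Of 10616 genes 41 were higher and 59 lower after tremolite asbestos than after the fragments, 0.386 and 0.556% of genes tested, or 0.942% in either direction. At an unadjusted p under 0.05 there were 1162. H2-M2 had 24.2, 29.9 and 25.8 FPKM after tremolite asbestos, against 12.5, 10.9 and 11.3 FPKM after the fragments (1.13, SE 0.08, limma adjusted p = 3.84e-05). Acod1 had 8.79, 8.82 and 8.45 FPKM after tremolite asbestos, against 5.12, 4.97 and 4.63 FPKM after the fragments (0.71, SE 0.071, limma adjusted p = 0.000507). Both genes were higher in every asbestos library. Mmp8, a collagenase of neutrophils and macrophages, had 1.91, 1.54 and 1.68 FPKM after tremolite asbestos, against 5.33, 5.52 and 5.16 FPKM after the fragments (-1.23, SE 0.13, limma adjusted p = 0.00064). Mmp12 had 47.7, 42.1 and 34.1 FPKM after tremolite asbestos, against 90.1, 77.2 and 71.0 FPKM after the fragments (-0.93, SE 0.12, limma adjusted p = 0.00267).

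Ear1 (-0.90), Krt79 (-0.82), the chemokine receptor Cxcr2 (-0.79) and the granule proteoglycan gene Srgn (-0.67) were also lower after tremolite asbestos than after the fragments. Lower too were Nkiras2 (-1.004), an inhibitor of NF-kB, and the neuropeptide gene Npff (-0.59). Higher after tremolite asbestos were Mndal (0.68), Mitd1 (0.61), Adgre4 (0.57), Clec4e (0.54), Ccnd1 (0.49) and the retinol carrier Rbp4 (0.43). The matrix and protease list held 5 lower and 0 higher of 26 genes, and 0 of the 56 interferon response genes were called although 54 of them had a positive difference (median 0.56 against -0.0113 over all genes) and 27 were higher and 1 lower at an unadjusted p under 0.05. The calls of Mndal, Mitd1, Adgre4, Clec4e, Ccnd1, Nkiras2 and Npff were lost without single libraries (limma adjusted p = 0.0525 to 0.163), and those of Cxcr2, Mmp12 and Rbp4 in the fit of both tremolite groups alone (0.0578, 0.0578 and 0.0559). That fit also lost Mndal, Mitd1, Adgre4, Clec4e, Ccnd1 and Npff (0.0559 to 0.172), and a pseudocount of 0.1 lost Mndal, Adgre4, Clec4e and Npff (0.0521 to 0.0776). The counts were 13 to 38 higher and 18 to 54 lower when 1 library was left out, and 17 and 12 in the fit of both tremolite groups alone.

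**Figure D5:**
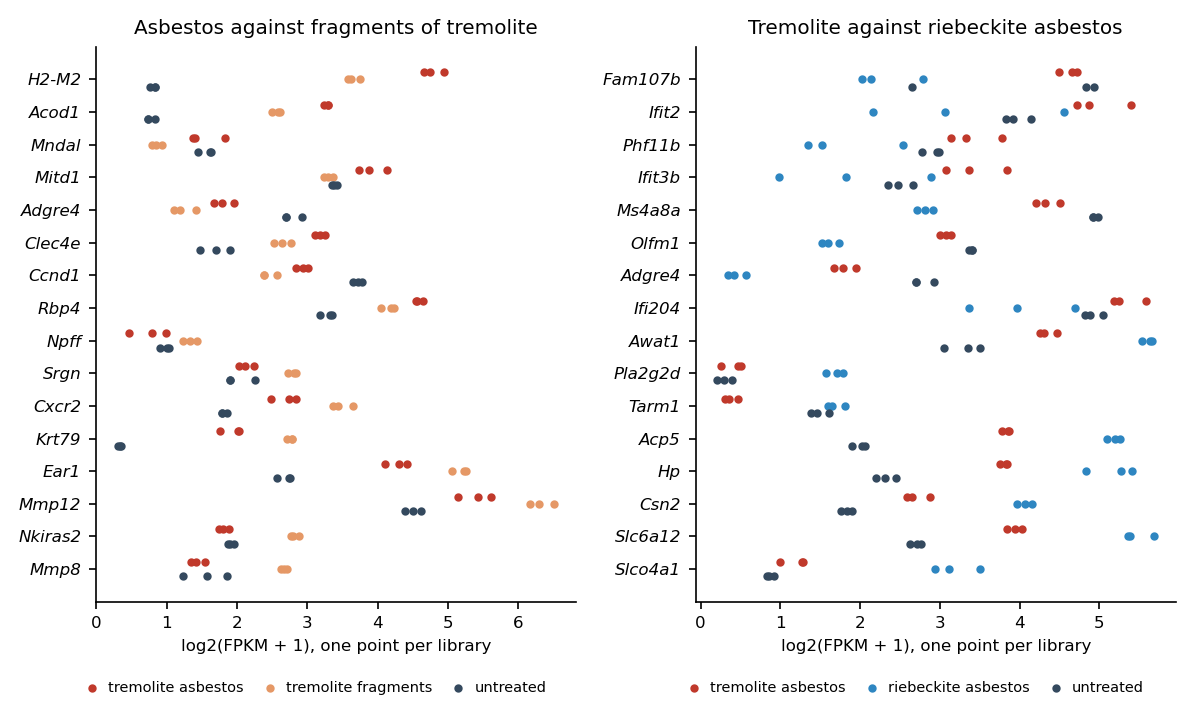
Log2(FPKM + 1) (horizontal axis) of the 8 largest differences in each direction between tremolite asbestos and tremolite fragments (left) and between tremolite asbestos and riebeckite asbestos (right), 1 point per library; within each gene red tremolite asbestos points stand above the other particle and the dark grey untreated points. In H2-M2 the fragments lie between the other groups, and in Acp5 and Slc6a12 riebeckite asbestos lies above both.

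A second direct test set tremolite asbestos against riebeckite asbestos, the fibres of the other amphibole, at 5 against 9 µg/cm2. Here 1171 genes were higher and 1645 lower after tremolite asbestos, 11.0 and 15.5% of genes tested, or 26.5% in either direction. Acp5 had 13.6, 13.5 and 12.7 FPKM after tremolite asbestos, against 35.6, 37.2 and 33.2 FPKM after riebeckite asbestos (-1.35, SE 0.084, limma adjusted p = 5.28e-07). Slc6a12, a transporter of betaine and GABA, had 14.3, 15.3 and 13.4 FPKM after tremolite asbestos, against 50.4, 40.6 and 40.1 FPKM after riebeckite asbestos (-1.54, SE 0.082, limma adjusted p = 2.49e-07). Slco4a1, an organic anion transporter, had 1.41, 1.44 and 0.993 FPKM after tremolite asbestos, against 10.3, 6.68 and 7.69 FPKM after riebeckite asbestos (-2.00, SE 0.13, limma adjusted p = 5.65e-07). In all 3 genes the 2 groups lie apart. Other genes lower after tremolite asbestos were the haptoglobin gene Hp (-1.36), Csn2 (-1.36), Tarm1 (-1.31), the phospholipase Pla2g2d (-1.28) and Awat1 (-1.27).

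Ms4a8a, a tetraspan membrane protein gene, had 21.6, 17.5 and 19.0 FPKM after tremolite asbestos, against 6.05, 6.52 and 5.59 FPKM after riebeckite asbestos (1.53, SE 0.068, limma adjusted p = 7.54e-08). Olfm1 (1.45) and Adgre4 (1.36) were higher as well. The 13 genes of the mitochondrial genome were all called higher after tremolite asbestos than after riebeckite asbestos (median 0.33). Their summed level was 21700, 20580 and 22060 FPKM after tremolite asbestos and 16020, 16610 and 18210 FPKM after riebeckite asbestos. In untreated cells it was 22390, 22130 and 22790 FPKM, so the riebeckite group is the low one. Of 56 interferon response genes 22 were higher and 1 lower. Ifit2, Ifit3b, Phf11b and Ifi204 of that list were among the 8 largest positive differences from riebeckite asbestos (1.74, 1.53, 1.61 and 1.33). Against untreated cells Ifit2, Ifit3b and Ifi204 had log2 fold changes of 1.04, 0.94 and 0.43, and they were not called in the fit of all libraries. The riebeckite values of Ifit2, 7.36, 22.4 and 3.48 FPKM, spread widely, and its call was lost without riebeckite asbestos replicate 1 or 3 or any 1 tremolite asbestos library (limma adjusted p = 0.0626 to 0.161), and in the fit of both asbestos groups alone (0.0751). The call of Ifit3b was lost without riebeckite asbestos replicate 1 or 3 or tremolite asbestos replicate 2 or 3 (0.0789 to 0.15), in the fit of both asbestos groups alone (0.0622) and with a pseudocount of 0.1 (0.0588). That of Fam107b (2.30) was lost without any 1 of the 6 libraries (0.0541 to 0.102). Lysosomal genes were lower in 26 of 64 cases and higher in 13, and Nrf2 genes lower in 16 of 32 and higher in 2.

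At the level of transcripts 574 of 22038 were higher and 533 lower after tremolite asbestos than in untreated cells, 2.60 and 2.42%, or 5.02% in either direction. They belong to 534 and 516 genes, of which 495 and 483 were called in the same direction as genes. Only 8 genes had transcripts called in both directions. Of these, Mkrn1, which encodes a ubiquitin ligase, had 2 transcripts that moved apart. Mkrn1-204 had 19.1, 16.4 and 17.7 FPKM after tremolite asbestos, against 6.26, 5.48 and 9.70 FPKM in untreated cells (1.23). Mkrn1-201 had 8.36, 9.50 and 10.6 FPKM after tremolite asbestos, against 21.5, 20.6 and 18.3 FPKM in untreated cells (-1.02). The share of Mkrn1-201 in the gene's summed FPKM was 14.1, 17.4 and 18.5% after tremolite asbestos and 37.0, 37.4 and 35.0% in untreated cells. Neither Mkrn1-201 nor Mkrn1-204 passed the test of such ratios given next (limma adjusted p = 0.439 and 0.179).

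A test of each transcript's ratio to the others of its gene, over 17071 transcripts of 5634 genes, called 1 lower and 0 higher, 0.00586% (limma, with 1000 at an unadjusted p under 0.05). The called one, Ube2k-203 of a ubiquitin-conjugating enzyme gene, was listed at 0 in the 3 treated libraries, against 0.783, 1.24 and 1.24 FPKM in untreated cells. Next by p were both tested transcripts of Hipk1, a nuclear kinase gene, and neither passed the test (limma adjusted p = 0.0701 for each). Hipk1-203 had 89.9, 90.4 and 88.4% of the gene's summed FPKM after tremolite asbestos and 61.2, 61.1 and 62.3% in untreated cells. Hipk1-201 had 10.1, 9.60 and 11.7% after tremolite asbestos and 38.9, 38.9 and 37.7% in untreated cells. Counts of usage calls were 7 and 9 in the fit of the 6 libraries alone.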

How the data were processed

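RNA sequencing was read from 15 libraries of MPI cells, 3 per group, and the comparison used the 3 tremolite asbestos and 3 untreated libraries. The authors deposited FPKM values per gene and per transcript, a unit taken from the values and column layout, since the tables give no read counts. Depth is unknown, so no counting interval or detection floor is given, and low FPKM values carry an error that cannot be stated. The submitters' processing notes name cutadapt, HISAT2 and StringTie and the genome build GRCm38, without versions. Coordinates are those of GRCm38, and 99.82% of gene identifiers were found in a reference gene table. FPKM values sum to unequal totals and depend on the make-up of each library, so a few abundant genes can shift all others.

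From these values, genes with at least 0.5 FPKM in at least 3 libraries were kept. Values were taken as log2(FPKM + 1), and 1 linear model with a term per group was fitted to all 15 libraries with limma 3.58.1 (mean-variance trend, R 4.3.3). Two-sided p-values were adjusted by Benjamini-Hochberg over all genes, with a threshold of 0.05. Direct contrasts with tremolite fragments and riebeckite asbestos came from the same fit. Transcripts were tested in the same way, and transcript usage as the log2 ratio of a transcript to the rest of its gene with 0.5 added to both. Motifs were searched on both strands of RefSeq windows, and mouse chromosome 18 was left out of that search. Python 3.11.15, pandas 2.3.3 and matplotlib 3.10.9 were used for tables and figures. The code was tested on simulated data. Columns of no sample used here numbered 0.

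The members and the 56 gene lists, 41 of pathways and 15 of cell types, were chosen with earlier results of these data known. Among genes past the threshold, with libraries that do not overlap and a mean of 1 FPKM or more in a group, the 15 that rose most and the 15 that fell most are named, together with 8 genes per direction in each direct contrast, up to 4 members per list by smallest p, and 21 genes fixed whatever their p, of which Il6, Nqo1, Nos2 and Ptgs2 were not tested. Predicted genes were not named, and some genes that the rule picks are not reported here. Further members of the lists were named with their values in view. Alternatives tried were TMM rescaling, quantile normalization, a pseudocount of 0.1, no filter, a stricter filter of 5 FPKM on the mean, a block for the replicate number, a fit of the compared groups alone, no trend, and each library left out in turn.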

Additional observations from a re-analysis of the deposited data

Results flagged for a closer look

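Tremolite asbestos differed from tremolite fragments, by a direct test of the difference of their effects, in 41 genes that were higher and 59 that were lower (limma adjusted p under 0.05). As log2 differences, H2-M2 (1.13), Acod1 (0.71), Mndal (0.68), Mitd1 (0.61), Adgre4 (0.57), Clec4e (0.54), Ccnd1 (0.49) and Rbp4 (0.43) were higher after the asbestos. Mmp8 (-1.23), Nkiras2 (-1.0), Mmp12 (-0.93), Ear1 (-0.90), Krt79 (-0.82), Cxcr2 (-0.79), Srgn (-0.67) and Npff (-0.59) were lower. These 2 exposures used 5 and 60 µg/cm2, matched by surface area.

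The same direct test against riebeckite asbestos found 1171 genes higher and 1645 lower after tremolite asbestos. Among those named, Fam107b (2.30), Ifit2 (1.74), Phf11b (1.61), Ifit3b (1.53), Ms4a8a (1.53), Olfm1 (1.45), Adgre4 (1.36) and Ifi204 (1.33) were higher. Slco4a1 (-2.00), Slc6a12 (-1.54), Csn2 (-1.36), Hp (-1.36), Acp5 (-1.35), Tarm1 (-1.31), Pla2g2d (-1.28) and Awat1 (-1.27) were lower. Both contrasts used the 3 tremolite asbestos libraries, so they are not independent of each other. Groups of 3 libraries are too small for a test of single outlying values, and none was made.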

How the results depend on the processing

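Of 283 named gene results, 249 were called, 214 of these kept their direction and their side of the threshold under each alternative, and 0 of those called changed direction. Results that were not called changed sign without single libraries: log2 fold changes ran over -0.03142 to 0.09603 for Mki67, -0.2582 to 0.8811 for Fam107b, -0.2781 to 0.03432 for Mmp8 and -0.1727 to 0.05263 for Mndal. Requiring a log2 change of at least 1 left 57 higher and 10 lower genes against untreated cells, 1 and 2 against tremolite fragments, 26 and 25 against riebeckite asbestos, and 84 and 32 transcripts. Leaving out 1 library gave 904 to 981 higher and 1087 to 1378 lower genes against untreated cells, 13 to 38 and 18 to 54 against tremolite fragments, 850 to 1089 and 1215 to 1467 against riebeckite asbestos, 433 to 483 and 332 to 406 transcripts, and 1 to 6 and 0 to 8 usage calls. The fit of the compared groups alone gave 17 and 12 genes against tremolite fragments, 326 and 238 transcripts, and 7 and 9 usage calls, of which 0 is shared with the fit of all libraries. Usage calls were 3 higher with a mean of at least 5 FPKM, and 1 higher and 2 lower without the trend. With the replicate number as a block, calls were 1100 higher and 1549 lower, usage calls 0, ribosomal protein genes called lower 36, and among the named calls Clec4e alone lost its own against tremolite fragments (limma adjusted p = 0.0576). Deviations of same-numbered tremolite asbestos and untreated libraries correlated at 0.1, 0.0261 and 0.044, and those of differently numbered ones at -0.0858 to 0.0513. The labels do not say whether a replicate number marks a shared batch, and these correlations cannot decide it. Why the settings differ was not tested.

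Limits are 3 libraries per group, an unknown depth, mineral doses that differ in mass, and 1 culture model at 1 time. Of the genes tested, 44 were listed at 0 in at least 1 of the 6 libraries, 10 of them called, and 9 symbols stood on more than 1 line.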

Other observations

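Targets of the tumour suppressor p53 rose in 8 of 26 tested cases and fell in 0, although Cdkn1a was not among them, whereas of 14 genes of DNA repair 7 fell and 0 rose. At an unadjusted p under 0.05 there were 9 higher and 2 lower among the p53 targets and 9 lower and 0 higher among the repair genes. Without tremolite asbestos replicate 1, 3 genes of both groups together were called lower. Phlda3, an inhibitor of the kinase AKT, had 62.7, 59.4 and 64.7 FPKM after tremolite asbestos, against 44.1, 44.4 and 40.9 FPKM in untreated cells (0.52, SE 0.055, limma adjusted p = 1.57e-05). In the apoptosis list 8 of 26 rose and 2 fell, and the 3 tested genes of the survival factor A1, Bcl2a1a, Bcl2a1b and Bcl2a1d, rose by 0.47, 0.48 and 0.62. These are near-identical copies whose reads can be split uncertainly.

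Immediate early factors were divided, with 6 of 23 higher and 7 lower, where 4 were called lower after TMM rescaling and without tremolite asbestos replicate 2. Maff, a small Maf protein, had 13.9, 13.9 and 12.7 FPKM after tremolite asbestos, against 5.63, 5.94 and 5.48 FPKM in untreated cells (1.12, SE 0.081, limma adjusted p = 5.61e-07), and Dusp6, a phosphatase of the kinase ERK, 24.8, 26.6 and 27.1 FPKM after tremolite asbestos, against 14.6, 13.4 and 13.6 FPKM in untreated cells (0.87, SE 0.082, limma adjusted p = 5.73e-06). Klf2 fell by 0.91. Of 15 eicosanoid genes 1 rose and 6 fell. Ptgs1, the constitutive cyclooxygenase, had 52.5, 50.6 and 49.1 FPKM after tremolite asbestos, against 64.1, 61.9 and 60.8 FPKM in untreated cells (-0.29, SE 0.033, limma adjusted p = 3.28e-05), and the prostaglandin E2 receptor Ptger4 had 7.01, 7.59 and 6.98 FPKM after tremolite asbestos, against 4.21, 4.23 and 4.37 FPKM in untreated cells (0.64, SE 0.041, limma adjusted p = 1.79e-07). In GM-CSF and STAT signalling, Cebpa, a myeloid lineage factor, had 39.0, 37.0 and 36.1 FPKM after tremolite asbestos, against 24.2, 24.0 and 22.1 FPKM in untreated cells (0.65, SE 0.069, limma adjusted p = 1.75e-05), while the feedback inhibitor Cish had 6.68, 8.70 and 6.72 FPKM after tremolite asbestos, against 10.9, 10.8 and 10.8 FPKM in untreated cells (-0.51, SE 0.12, limma adjusted p = 0.00738).

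A few genes, chosen after their values were seen, had 1 library far from its 2 partners. Slc7a2, an arginine transporter, had 222, 217 and 201 FPKM after tremolite asbestos, against 142, 58.5 and 56.1 FPKM in untreated cells (1.45, SE 0.42, limma adjusted p = 0.0248), a call lost without untreated replicate 2 or 3 or any 1 tremolite asbestos library (0.0533 to 0.0976). Fam107b had 21.5, 24.1 and 25.4 FPKM after tremolite asbestos, against 27.5, 5.27 and 29.4 FPKM in untreated cells (0.49, SE 0.75, limma adjusted p = 0.699). Arg1, the arginase that breaks down arginine, had 3.66, 1.14 and 0.847 FPKM after tremolite asbestos, against 0.862, 0.772 and 0.808 FPKM in untreated cells (0.54, SE 0.30, limma adjusted p = 0.229).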
